A study of Rattus norvegicus with 16 samples.

Results

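The genes described here are 9 of the 17055 gene symbols counted in rat liver: the p53 target genes Cdkn1a, Mdm2, Ccng1, Btg2 and Plk3, the 3 members of the GADD45 family (Gadd45a, Gadd45b and Gadd45g) and the G1 cyclin Ccnd1. They were chosen by symbol, all 9 were present in every library, and all 9 had enough reads to be tested in every comparison. Liver was taken from male Sprague-Dawley rats aged 10 weeks, 8 h after the abdomen had been opened under general anesthesia. The 4 groups were Isoflurane sepsis with its Isoflurane control and Propofol sepsis with its Propofol control. In the sepsis groups the cecum was ligated and punctured (CLP), and in the control groups the cecum was only handled. Rats of the isoflurane groups were put to sleep and kept asleep with isoflurane, a volatile anesthetic. Rats of the propofol groups were put to sleep with ketamine and xylazine and kept asleep with propofol, so the anesthetic and the induction drugs cannot be told apart. Each library was a pool of liver from 3 rats, with 4 libraries and 12 rats per group, and the spread given here is between pools and not between rats.

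The transcription factor p53 is stabilised when DNA is damaged or cells are stressed, and it switches on genes that stop the cell cycle, repair DNA or kill the cell. Cdkn1a encodes p21, an inhibitor of cyclin-dependent kinases, and Mdm2 encodes the ubiquitin ligase that degrades p53 and so closes a feedback loop. Ccng1 encodes cyclin G1, Btg2 an antiproliferative protein that is also an immediate early gene, and Plk3 a stress-responsive kinase of the polo family. The GADD45 proteins bind stress kinases and cell-cycle proteins, and their genes also respond to inflammatory signals without p53. Ccnd1 encodes cyclin D1, which drives G1 and is therefore not a brake, and the liver has very few dividing cells unless it is injured.

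The stretch just upstream of the gene start was read from RefSeq promoters (build GRCr8) for 8 of the 9 genes, to show which of these p53 targets carry a p53 half-site close to their start. No entry was given for Ccnd1. The p53 half-site was found in the 250 bases upstream of 3 of the 8 genes, Cdkn1a, Ccng1 and Gadd45a, and in 6.64% of the 33469 promoters searched over the same length on both strands. These 3 windows are printed 5′ to 3′ in the direction of the gene, with the half-site in capitals. The fourth window is that of Btg2, the only one of the 8 with a cyclic AMP response element (CRE, TGACGTCA, in 1.59% of promoters), which is in capitals there. The windows lie at chr20:7150682-7150931 on the + strand (Cdkn1a), chr10:25684877-25685126 on the - strand (Ccng1), chr4:97486800-97487049 on the - strand (Gadd45a) and chr13:48087691-48087940 on the - strand (Btg2).
Cdkn1a: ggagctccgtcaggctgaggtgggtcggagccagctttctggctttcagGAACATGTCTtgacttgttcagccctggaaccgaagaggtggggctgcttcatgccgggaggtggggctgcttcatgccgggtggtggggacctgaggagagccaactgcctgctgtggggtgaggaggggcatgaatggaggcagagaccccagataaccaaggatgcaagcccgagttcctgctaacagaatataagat
Ccng1: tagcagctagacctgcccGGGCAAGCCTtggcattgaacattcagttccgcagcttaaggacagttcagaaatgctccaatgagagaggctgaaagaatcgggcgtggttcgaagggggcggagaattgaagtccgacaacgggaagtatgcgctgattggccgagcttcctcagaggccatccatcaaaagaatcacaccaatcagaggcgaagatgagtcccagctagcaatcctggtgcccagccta
Gadd45a: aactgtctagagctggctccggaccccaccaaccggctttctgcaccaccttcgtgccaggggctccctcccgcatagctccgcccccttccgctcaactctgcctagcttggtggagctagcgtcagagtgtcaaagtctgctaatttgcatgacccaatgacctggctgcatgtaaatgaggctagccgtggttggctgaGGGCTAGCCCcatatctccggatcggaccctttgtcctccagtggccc
Btg2: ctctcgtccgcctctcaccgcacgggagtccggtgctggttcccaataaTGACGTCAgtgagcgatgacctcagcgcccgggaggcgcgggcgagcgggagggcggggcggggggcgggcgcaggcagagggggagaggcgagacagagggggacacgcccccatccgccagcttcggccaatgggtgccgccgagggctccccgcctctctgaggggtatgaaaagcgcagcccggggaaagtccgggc
The half-site began 201 bases before the start of Cdkn1a, 232 before that of Ccng1 and 48 before that of Gadd45a, and the CRE 201 before that of Btg2. The half-site of Cdkn1a overlapped a C/EBP site (TTNNGNAA, in 37.2% of promoters), which was also found in Ccng1. An E-box (CACGTG, 5.59%) lay upstream of Gadd45b and Gadd45g, a GC box (GGGCGG, 30.5%) upstream of 5 of the 8 genes, and a TATA box (TATAAA, 12.9%) upstream of Gadd45g. None of the 8 windows held an AP-1 site (TGANTCA, 6.34%), a STAT site (TTCNNNGAA, 7.67%) or an NF-kB site (6.33%). These are matches of letters in 1 window and not measurements of binding. Some known p53 sites, such as those in the first intron of Mdm2, lie outside these windows.

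Reads on genes numbered 14199422 to 49937173 per library, and the 9 genes had between 60 reads (Ccnd1) and 56128 reads (Btg2) in a library. Levels are CPM, which are reads on a gene relative to the reads on genes in its library, after TMM scaling over all 16 libraries, and they are not divided by gene length, so levels are compared within a gene and not between genes. Library numbers follow the labels, which give 1 to 4 to Isoflurane sepsis, 5 to 8 to its controls, 9 to 12 to Propofol sepsis and 13 to 16 to its controls. The hepatocyte markers on a list of 8 summed to between 79855 and 132748 CPM in every library. Library 10 (Propofol sepsis) stood apart, since 10 markers of brain summed to 364 CPM there and to between 6.00 and 27.1 CPM in the other libraries. In Isoflurane sepsis, library 3 had the highest level of 6 of the 8 genes other than Ccnd1. The values of the 9 genes in the comparisons that use library 3 or library 10 are therefore also given without it.

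Within each anesthetic, sepsis was set against control by the quasi-likelihood test of edgeR, 4 libraries against 4, with Benjamini-Hochberg adjustment over all genes tested, and a gene was called at an adjusted p below 0.05. Under isoflurane 6 of the 9 genes rose in sepsis (Cdkn1a, Mdm2, Ccng1, Btg2, Gadd45b and Gadd45g), Ccnd1 fell, and Plk3 and Gadd45a did not pass the test. Over all 10361 genes tested in that comparison 25.7% were called higher and 24.4% lower, so each call by itself was common in these livers. Under propofol 5 of the 9 genes rose (Cdkn1a, Ccng1, Btg2, Gadd45b and Gadd45g), Ccnd1 fell, and Mdm2, Plk3 and Gadd45a did not pass, where 20.4% of 10348 genes were called higher and 21.7% lower. The median log2 fold change of the 9 genes was 1.39 under isoflurane and 0.65 under propofol, against 0.01 and 0.00 over all genes tested. These medians are a description, since the 9 genes were chosen with earlier results of these data known. The isoflurane median was the value of Gadd45a, which was not called and fell to 0.25 without library 3. The sepsis and control libraries did not overlap for 7 of the 9 genes under isoflurane and 6 under propofol, where 48.8% and 41.6% of all genes tested did not overlap in either direction. The counts were 7 called without library 3 under isoflurane and 6 called without library 10 under propofol, as with all libraries. In bulk liver RNA, a change in the number of cells of a type and a change in RNA per cell cannot be told apart.

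Among the p53 targets, Cdkn1a had the largest estimated rise under isoflurane of the 9 genes. Its level was 69.0, 177, 299 and 142 CPM in the 4 Isoflurane sepsis libraries and 44.5, 32.6, 34.3 and 41.4 CPM in the Isoflurane control libraries. It was 66.5, 84.3, 62.1 and 49.1 CPM in Propofol sepsis and 25, 18.0, 21 and 31.0 CPM in Propofol control. Every septic library lay above every control library of its anesthetic, and library 1, the lowest of Isoflurane sepsis, lay within the range of Propofol sepsis. The log2 fold change of Cdkn1a was 2.19 (SE 0.381, adjusted p = 0.00180), or 4.57-fold, under isoflurane and 1.47 (SE 0.198, adjusted p = 4.0e-04), or 2.76-fold, under propofol. Without library 3 it was 1.77 under isoflurane (adjusted p = 0.00185), and without library 10 it was 1.31 under propofol (adjusted p = 3.5e-04).

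Mdm2, the ligase that acts on p53, rose under isoflurane and did not pass under propofol. Its level was 44.8, 58.9, 87.1 and 54.2 CPM in Isoflurane sepsis against 36.3, 35.4, 31.6 and 34.1 CPM in its controls. It was 46.4, 43.2, 41.0 and 40.4 CPM in Propofol sepsis against 44.5, 42, 43.8 and 38.9 CPM in its controls. The first pair of groups did not overlap, and the second pair covered nearly the same range. The log2 fold change of Mdm2 was 0.85 (SE 0.188, adjusted p = 0.00546) under isoflurane and 0.02 (95% confidence interval -0.14 to 0.17, adjusted p = 0.847) under propofol. Without library 3 the value under isoflurane was 0.63 (adjusted p = 0.00233), and without library 10 the value under propofol was 0.01 (adjusted p = 0.943).

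Ccng1, the cyclin G1 gene, had the smallest spread of the 9 genes in Isoflurane sepsis, with a coefficient of variation of 11.5%. Its level was 199, 259, 253 and 230.0 CPM there and 106, 101, 92.8 and 93.8 CPM in Isoflurane control. It was 152, 132, 146 and 129 CPM in Propofol sepsis and 100.3, 82.3, 72.1 and 101 CPM in Propofol control. The 2 control groups overlapped, and the 3 ranges of control, Propofol sepsis and Isoflurane sepsis lay above each other without overlap. For Ccng1 the log2 fold change was 1.27 (SE 0.102, adjusted p = 6.3e-05) under isoflurane and 0.65 (SE 0.112, adjusted p = 0.00146) under propofol. It was 1.23 without library 3 and 0.68 without library 10, both called.

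Btg2, the antiproliferative immediate early gene, rose by nearly the same factor under both anesthetics from different starting levels. Its level was 833, 1718, 2903 and 1137 CPM in Isoflurane sepsis and 530.0, 499.9, 336 and 536 CPM in its controls. It was 363, 547, 444 and 283 CPM in Propofol sepsis and 149, 105, 153 and 88.0 CPM in Propofol control. The ranges of Isoflurane control and Propofol sepsis overlapped, with Isoflurane sepsis above and Propofol control below them. Its rise had a log2 fold change of 1.82 (SE 0.363, adjusted p = 0.00349), or 3.52-fold, under isoflurane and 1.73 (SE 0.233, adjusted p = 3.9e-04), or 3.33-fold, under propofol. Without library 3 it was 1.38 under isoflurane, and without library 10 it was 1.55 under propofol, and both were still called.

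Plk3, the stress kinase, did not pass in either sepsis comparison. Its level was 9.57, 13.7, 13.1 and 8.36 CPM in Isoflurane sepsis, which spanned the 9.26 to 10.0 CPM of its controls. It was 12.6, 9.86, 13.6 and 11.6 CPM in Propofol sepsis and 18.8, 13.3, 18.2 and 12.5 CPM in Propofol control, and these groups overlapped. In the test Plk3 had a log2 fold change of 0.23 (95% interval -0.12 to 0.58, adjusted p = 0.240) under isoflurane and -0.39 (95% interval -0.73 to -0.06, adjusted p = 0.0552) under propofol. The propofol value was called with DESeq2 (-0.39, adjusted p = 0.0474), with library totals alone (-0.45, adjusted p = 0.0384) and without library 16 (-0.49, adjusted p = 0.0265). Plk3 was at 0.14 without library 3 and at -0.32 without library 10, neither of them called.

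**Figure D1:**
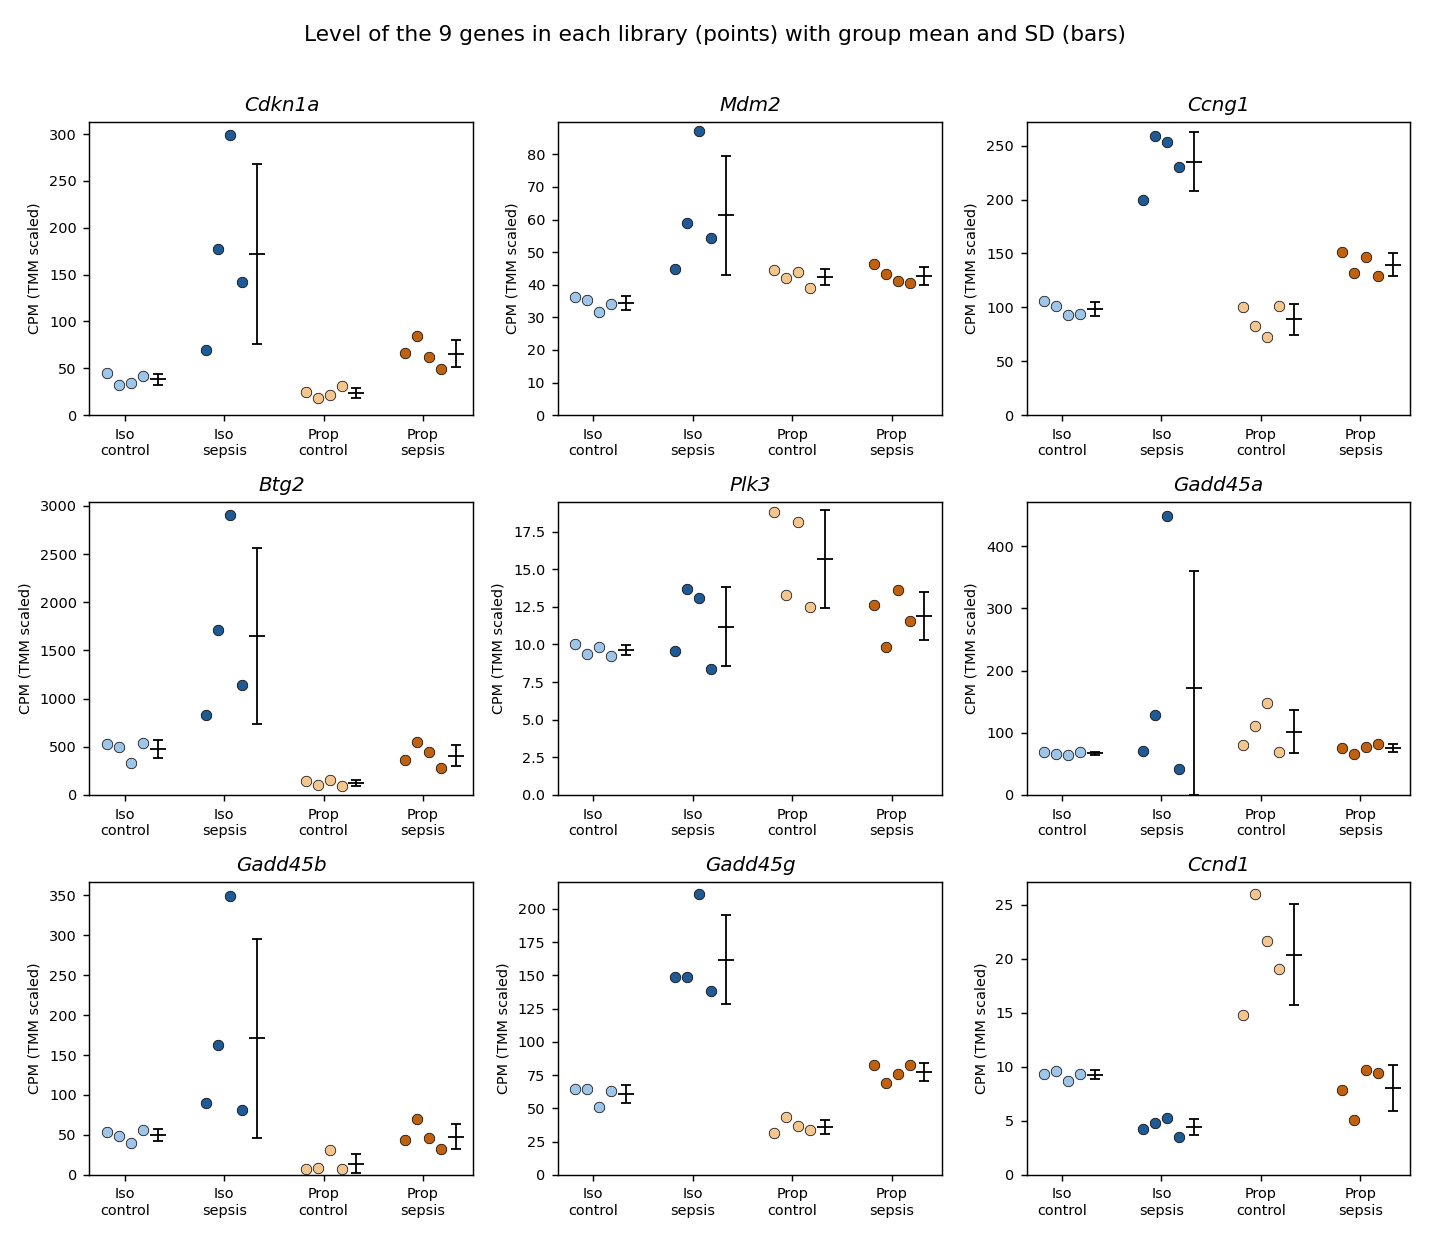
Level of each of the 9 genes in CPM after TMM scaling (y axes, from 0) in the 16 libraries (points) by group (x axes), with the group mean and SD over 4 libraries as a bar beside the points, cut at 0 for Gadd45a in Isoflurane sepsis. Cdkn1a, Btg2 and Gadd45b are highest in Isoflurane sepsis with library 3 on top (299, 2903 and 349.9 CPM), and Ccnd1 is lowest there (3.53 to 5.28 CPM).

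Of the 3 GADD45 genes, Gadd45g rose under both anesthetics with a narrow spread, Gadd45b rose under both with a wide spread, and Gadd45a did not pass under either. Gadd45g stood at 149, 149, 212 and 138 CPM in Isoflurane sepsis and at 64.6, 64.8, 50.7 and 63.2 CPM in its controls. It stood at 82.8, 68.8, 75.7 and 82.4 CPM in Propofol sepsis and at 31.3, 43.2, 36.6 and 33.8 CPM in its controls. The 4 groups did not overlap, and they rose in the order Propofol control, Isoflurane control, Propofol sepsis and Isoflurane sepsis. Sepsis changed Gadd45g by a log2 fold change of 1.43 (SE 0.152, adjusted p = 1.9e-04) under isoflurane and 1.10 (SE 0.103, adjusted p = 7.9e-05) under propofol. The rise was 1.26 without library 3 and 1.15 without library 10, both called.

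Gadd45b stood at 89.5, 163, 349.9 and 81.2 CPM in Isoflurane sepsis and at 53.9, 48.5, 40.2 and 56.7 CPM in Isoflurane control. It stood at 44.0, 69.8, 46.2 and 31.7 CPM in Propofol sepsis and at 6.94, 8.99, 31.4 and 7.63 CPM in Propofol control. Library 15 was far above the other Propofol control libraries and just below library 12, the lowest of Propofol sepsis. As for Btg2, Isoflurane control and Propofol sepsis overlapped in level. The log2 fold change of Gadd45b was 1.80 (SE 0.437, adjusted p = 0.00868) under isoflurane and 1.79 (SE 0.467, adjusted p = 0.0125) under propofol. It was 1.16 without library 3 and, under propofol, 1.53 without library 10 and 2.61 without library 15, and each of these was called.

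Gadd45a, the family member best known as a p53 target, rested on 1 library under isoflurane. Its level was 70.0, 128, 449 and 41.1 CPM in Isoflurane sepsis, while the Isoflurane control libraries lay between 64.1 and 69.1 CPM. Library 3 was the highest of all 16 libraries and library 4 the lowest. In Propofol sepsis it was 74.9, 66.2, 76.5 and 81.9 CPM, and in Propofol control 79.8, 111, 147 and 69.2 CPM, and these groups overlapped. Under isoflurane Gadd45a had a log2 fold change of 1.39 (SE 0.636, adjusted p = 0.0975). It was 0.25 without library 3 (adjusted p = 0.520), and 1.71 and called without library 4 (adjusted p = 0.0269). With all 16 libraries in 1 fit it was 1.37 and also called (adjusted p = 0.0316). Under propofol the log2 fold change of Gadd45a was -0.44 (SE 0.202, adjusted p = 0.105). It was called without library 16 (-0.58, adjusted p = 0.0301), and it was -0.21 without library 15, the highest of its group (adjusted p = 0.292), and -0.39 without library 10 (adjusted p = 0.177).

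Ccnd1, the cyclin that drives G1, was the only one of the 9 genes that fell, and it fell under both anesthetics. Its level was 4.21, 4.78, 5.28 and 3.53 CPM in Isoflurane sepsis and 9.32, 9.64, 8.68 and 9.37 CPM in Isoflurane control. It was 7.83, 5.05, 9.69 and 9.43 CPM in Propofol sepsis and 14.8, 26, 21.7 and 19.1 CPM in Propofol control. Every septic library lay below every control library of its anesthetic, and library 10 was the lowest of Propofol sepsis. The log2 fold change of Ccnd1 was -1.04 (SE 0.129, adjusted p = 3.7e-04) under isoflurane and -1.35 (SE 0.213, adjusted p = 9.3e-04) under propofol, and it was -1.14 under isoflurane without library 3 (adjusted p = 3.4e-04) and -1.18 under propofol without library 10 (adjusted p = 6.8e-04).

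**Figure D2:**
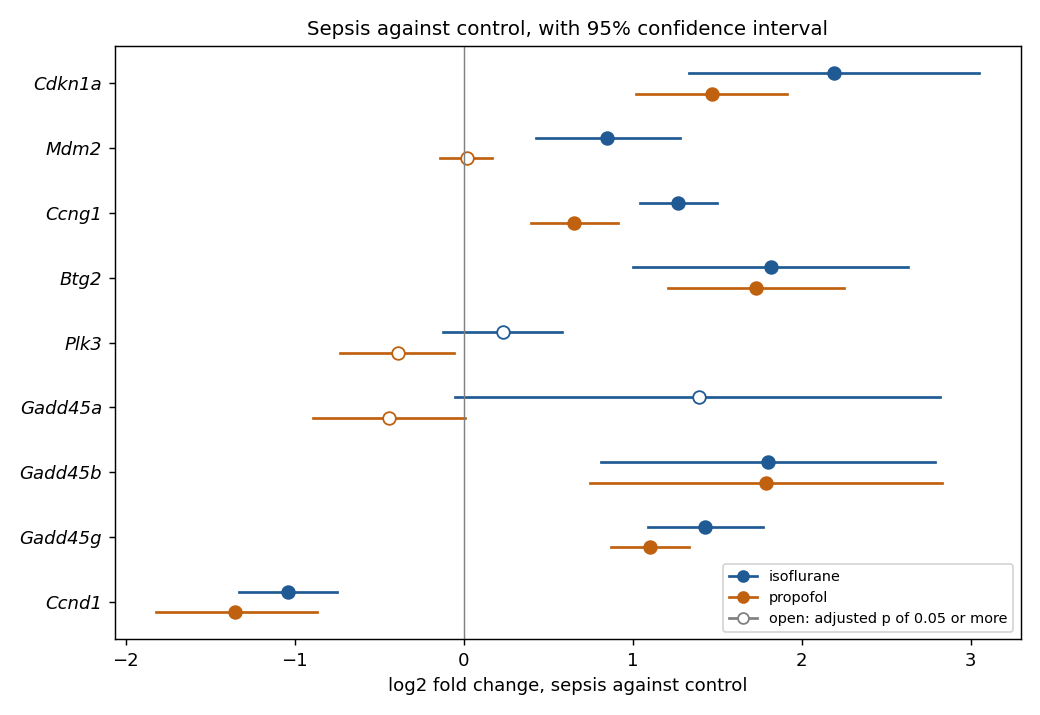
Log2 fold change of sepsis against control (x axis) for each gene (y axis) under isoflurane (blue) and propofol (orange), with the 95% confidence interval from edgeR and filled points for genes called. Mdm2 is at 0.85 under isoflurane and 0.02 under propofol, while Btg2 and Gadd45b have nearly the same value under both.

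The septic libraries were also set against the mean log2 level of the 4 controls of the same anesthetic, as a description. In library 3 the median over the 9 genes was 1.80, and in libraries 1, 2 and 4 it was 0.83, 1.29 and 0.72. In the Propofol sepsis libraries 9 to 12 it was 0.78, 0.58, 0.73 and 0.55. Library 3 had the highest value of its group for Cdkn1a (2.98), Gadd45b (2.82), Gadd45a (2.74), Btg2 (2.63), Gadd45g (1.80) and Mdm2 (1.34). For Ccng1 it did not stand apart, at 1.36 against 1.02 to 1.39 in the others, and for Ccnd1 it had the smallest fall (-0.80). Among Propofol sepsis libraries, library 10 had the highest Gadd45b (2.65), Btg2 (2.18) and Cdkn1a (1.85) and the lowest Ccnd1 (-1.96).

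**Figure D3:**
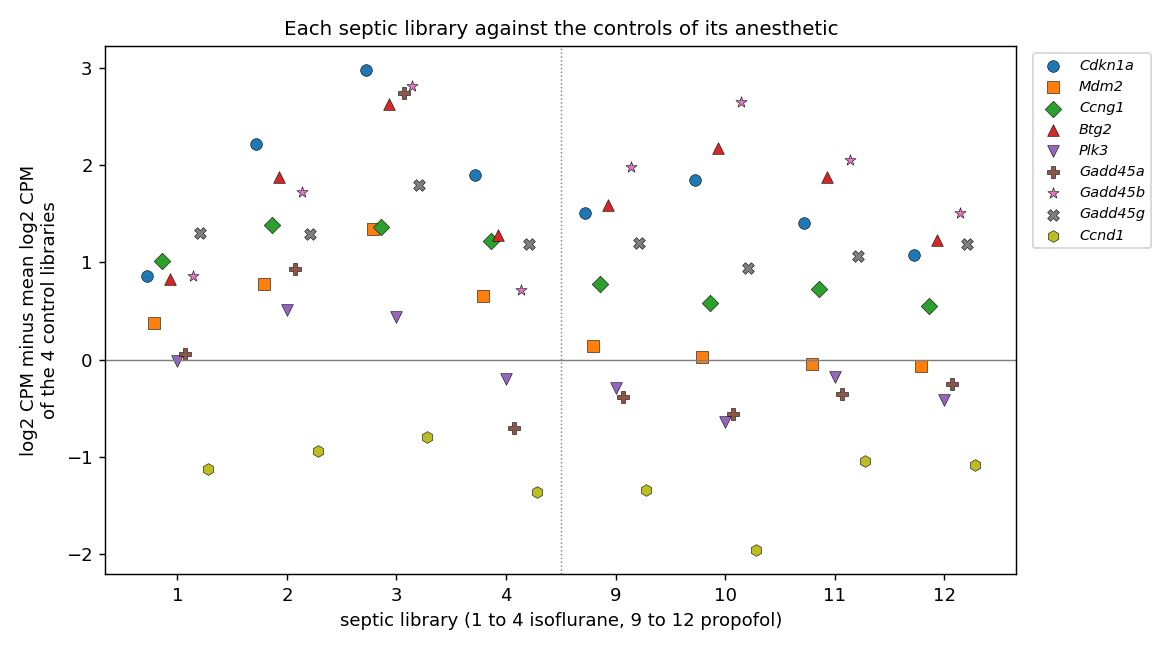
Log2 CPM of each gene (symbols) in each septic library (x axis) minus the mean log2 CPM of the 4 control libraries of the same anesthetic (y axis). Gadd45a runs from -0.70 in library 4 to 2.74 in library 3, while Gadd45g stays between 0.94 and 1.80 in all 8 libraries.

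Whether the response to sepsis differed between the anesthetics was tested by the interaction term of a fit to the 16 libraries, with the sign of isoflurane minus propofol. Mdm2 and Ccng1 passed, both with the larger rise under isoflurane. At an unadjusted p below 0.05 there were 4 of the 9 genes, where 23.1% of all genes tested lay below it. Over all 10621 genes tested 1.66% were called with a larger value under isoflurane and 1.06% with a smaller one. The difference of log2 fold changes was 0.82 for Mdm2 (SE 0.202, adjusted p = 0.0441) and 0.61 for Ccng1 (SE 0.153, adjusted p = 0.0473), both close to the threshold. For Mdm2 the controls also differed, at 31.6 to 36.3 CPM under isoflurane and 38.9 to 44.5 CPM under propofol, so the isoflurane rise began lower. With each of the 16 libraries left out in turn, Mdm2 was called in 5 fits and Ccng1 in 2, and neither in 10. The differences themselves stayed between 0.61 and 0.95 for Mdm2 and between 0.54 and 0.70 for Ccng1, with adjusted p up to 0.0926 and 0.101. Mdm2 lost its call without any one of libraries 2, 5 to 9 and 11 to 15, and Ccng1 without any one but libraries 1 and 15. The difference of Mdm2 was 0.61 without library 3 and 0.84 without library 10, both called, and that of Ccng1 was 0.57 and 0.59, neither of them called. With libraries 3 and 10 both left out, Mdm2 was still called (0.62, adjusted p = 0.0391) and Ccng1 was not (0.56, adjusted p = 0.0901).

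For the other 7 genes the interaction did not pass the test. The estimate for Gadd45a was 1.80 with a 95% interval of 0.30 to 3.31 (adjusted p = 0.147), and it was 0.69 without library 3 and 1.76 without library 10. The estimate for Plk3 was 0.62 (95% interval 0.14 to 1.09, adjusted p = 0.121), with 0.53 without library 3 and 0.55 without library 10. The estimate for Cdkn1a was 0.71 (95% interval -0.24 to 1.65, adjusted p = 0.345), and it was 0.30 without library 3 (adjusted p = 0.673) and 0.87 without library 10. Btg2 was at 0.06 (-0.89 to 1.02) and Gadd45b at -0.01 (-1.44 to 1.41), intervals too wide to call the responses equal. Gadd45g was at 0.32 (-0.07 to 0.71) and Ccnd1 at 0.30 (-0.27 to 0.87). Without library 3 these 4 genes were at -0.36 (Btg2), -0.63 (Gadd45b), 0.17 (Gadd45g) and 0.21 (Ccnd1), and without library 10 at 0.25, 0.24, 0.28 and 0.14, none of them called.

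The anesthetics were then compared directly, first in control liver and then in septic liver. Each of these comparisons shares its libraries with the sepsis comparisons above, so they are not independent of them. In control liver 4 of the 9 genes were higher under isoflurane (Cdkn1a, Btg2, Gadd45b and Gadd45g), 4 were lower (Mdm2, Plk3, Gadd45a and Ccnd1), and Ccng1 did not pass. Of all 10314 genes tested there, 21.6% were called higher and 21.7% lower. The log2 difference in control liver was 1.95 for Btg2 (SE 0.192, adjusted p = 3.7e-05), 1.84 for Gadd45b (SE 0.393, adjusted p = 0.00365), 0.75 for Gadd45g (adjusted p = 3.1e-04) and 0.69 for Cdkn1a (adjusted p = 0.00439). It was -1.14 for Ccnd1 (SE 0.143, adjusted p = 1.6e-04), -0.70 for Plk3 (adjusted p = 0.00164), -0.60 for Gadd45a (adjusted p = 0.0253) and -0.29 for Mdm2 (adjusted p = 0.00346). The control groups did not overlap for any of these 8 genes, nor for 40.3% of all genes tested there. Without library 15 the difference of Gadd45b was 2.67. The call of Gadd45a was lost without any one of libraries 5, 6, 7, 8 and 14 (adjusted p between 0.0526 and 0.0612), and the value was -0.37, still called, without library 15. The calls of Cdkn1a, Mdm2 and Gadd45a were also lost when all 16 libraries shared 1 estimate of the spread (adjusted p = 0.124, 0.142 and 0.408). Cell markers and cycle genes differed in the same comparison. Of 8 hepatocyte markers 7 were higher under isoflurane and 1 was lower, and they summed to 122004 to 132748 CPM in Isoflurane control and 86929 to 96529 CPM in Propofol control. Of 22 genes of S phase and mitosis, 13 were higher and 3 lower. Their part in the differences of the 9 genes was not tested.

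In septic liver 5 of the 9 genes were higher under isoflurane (Cdkn1a, Ccng1, Btg2, Gadd45b and Gadd45g), Ccnd1 was lower, and Mdm2, Plk3 and Gadd45a did not pass. Of all 10272 genes tested there, 10.6% were called higher and 8.66% lower. The log2 difference was 2.01 for Btg2 (SE 0.379, adjusted p = 0.0148), 1.83 for Gadd45b (SE 0.470, adjusted p = 0.0306), 1.39 for Cdkn1a (SE 0.382, adjusted p = 0.0365), 1.07 for Gadd45g (SE 0.137, adjusted p = 0.00544), 0.76 for Ccng1 (SE 0.102, adjusted p = 0.00616) and -0.84 for Ccnd1 (SE 0.212, adjusted p = 0.0297). The septic groups overlapped for Cdkn1a and Ccnd1 among these 6 genes, and 25.1% of all genes tested did not overlap. The calls of Ccng1 and Gadd45g held whichever library was left out. The call of Cdkn1a was lost without library 3 (0.99, adjusted p = 0.0796), and also without library 2, 4, 9, 11 or 12, with adjusted p up to 0.106. Gadd45b was at 1.21 without library 3 (adjusted p = 0.0533) and also lost its call without library 2, 9, 11 or 12, with adjusted p up to 0.0934. Mdm2 was at 0.52 and was called with DESeq2 (adjusted p = 0.0374), with all 16 libraries in 1 fit (adjusted p = 0.00956) and without library 1 (0.65, adjusted p = 0.0221). Ccnd1 lost its call without library 2, 3, 4, 9, 11 or 12 (adjusted p up to 0.0934) and Btg2 without library 9, 11 or 12 (adjusted p up to 0.0573). Without library 3 the other differences were 1.59 for Btg2, 0.92 for Gadd45g, 0.73 for Ccng1, 0.31 for Mdm2, 0.09 for Gadd45a, -0.17 for Plk3 and -0.93 for Ccnd1. Without library 10, where the same 6 genes were called as with all libraries, they ran from 0.74 for Ccng1 to 2.20 for Btg2 among the 5 higher genes, with -0.99 for Ccnd1, and Mdm2, Plk3 and Gadd45a were at 0.54, -0.15 and 1.16. Of 7 endothelial markers 5 were lower under isoflurane in septic liver, and of 8 hepatocyte markers 3 were higher and 1 lower.

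**Figure D4:**
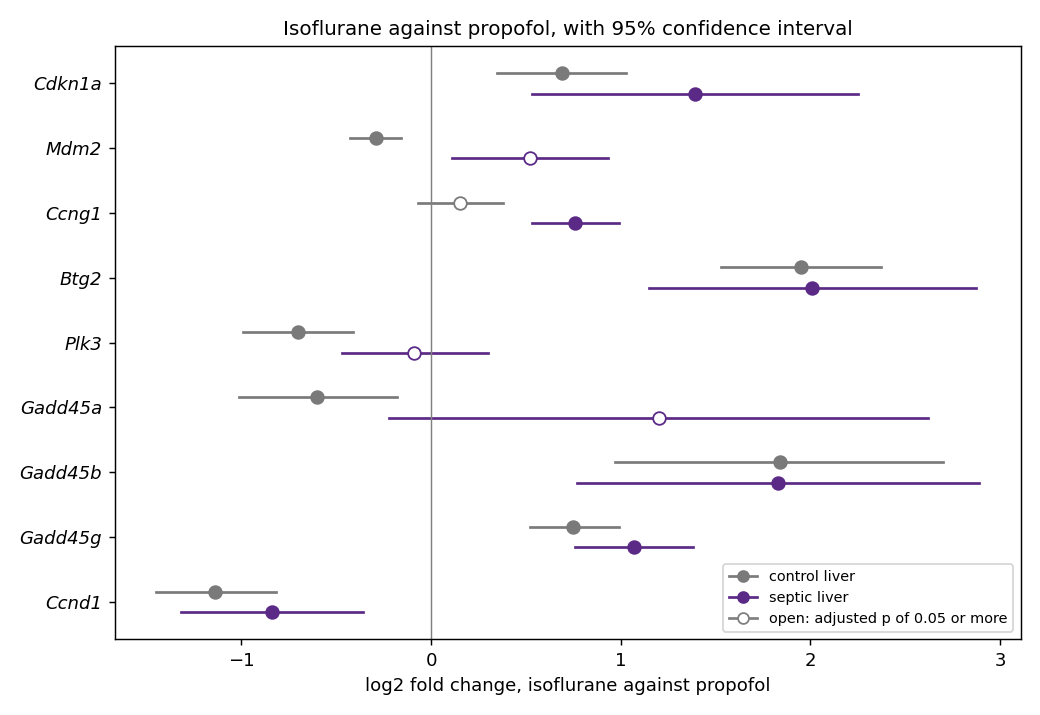
Log2 fold change of isoflurane against propofol (x axis) for each gene (y axis) in control liver (grey) and septic liver (purple), with the 95% confidence interval from edgeR and filled points for genes called. Btg2 and Gadd45b are higher under isoflurane by nearly the same amount in both (1.95 and 2.01, and 1.84 and 1.83), while Mdm2, Plk3 and Gadd45a lie at -0.29, -0.70 and -0.60 in control liver and at 0.52, -0.09 and 1.20 in septic liver.

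Markers of other cells moved with sepsis as well. Over all genes tested 25.7% rose and 24.4% fell under isoflurane, and 20.4% rose and 21.7% fell under propofol. Of 7 neutrophil and monocyte markers tested, 6 rose under isoflurane, and 5 of 8 rose under propofol. Without Lcn2, which hepatocytes also make in inflammation, 8 markers summed to 35.8 to 116 CPM in Isoflurane sepsis and 17.3 to 19.8 CPM in its controls, and to 37.7 to 52.6 CPM in Propofol sepsis and 18.8 to 26.9 CPM in its controls. Library 3 had the highest sum (116 CPM) and library 1 the lowest of Isoflurane sepsis, as for Cdkn1a, Mdm2 and Btg2 in that group. Between these ends the order differed. The sum was higher in library 4 than in library 2 (98.1 and 73.8 CPM), while Cdkn1a, Mdm2 and Btg2 were lower in library 4. The other members did not share both ends. Library 4, with a sum of 98.1 CPM, had the lowest Plk3, Gadd45a, Gadd45b, Gadd45g and Ccnd1 of the group, and library 2 had the highest Ccng1 and Plk3. S100a8 and S100a9, the calprotectin genes of neutrophils and monocytes, rose under isoflurane (2.49, adjusted p = 6.9e-04, and 1.98, adjusted p = 0.00148), and so did the integrin gene Itgam (2.96, adjusted p = 2.1e-04). Mpo, which is transcribed mainly in marrow precursors and little in mature neutrophils, was at most 0.0589 CPM in any library. Of 9 markers of Kupffer cells and macrophages, 6 rose and 1 fell under isoflurane and 2 rose and 1 fell under propofol, and their sum was 402 to 509.5 CPM in Isoflurane sepsis and 335 to 416 CPM in its controls. Hepatocyte markers summed to 100690 to 113073 CPM in Isoflurane sepsis, below the 122004 to 132748 CPM of its controls, and 3 of the 8 fell and 0 rose, while 2 fell and 2 rose under propofol. Of 7 endothelial markers 5 fell and 0 rose under isoflurane, where they summed to 117 to 141 CPM against 171 to 213 CPM in control, and 2 fell and 1 rose under propofol. Of 6 stellate cell markers 2 rose and 1 fell under isoflurane and 3 fell under propofol. The part of these cells in the levels of the 9 genes was not tested.

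Mdm4, the partner of Mdm2 in holding p53 down, did not pass in sepsis under isoflurane (0.13, adjusted p = 0.346) or propofol (0.18, adjusted p = 0.123). Of 7 genes tested on a list of p53 regulators, 2 were called under isoflurane, both of them higher. Over all genes tested 25.7% were called higher there and 24.4% lower. The 2 regulators were Hipk2, a kinase that activates p53 (1.12, adjusted p = 0.00343), and Chek1, a DNA damage checkpoint kinase (0.54, adjusted p = 0.0347). The call of Chek1 was lost without any one of 7 of the 8 libraries, the exception being library 3. Under propofol 2 rose, Hipk2 (0.61, adjusted p = 0.0128) and Chek1 (0.49, adjusted p = 9.0e-04), where 20.4% of all genes tested were called higher and 21.7% lower.

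Other p53 target genes went both ways. Of 22 tested, 9 rose and 6 fell under isoflurane, and 5 rose and 8 fell under propofol, with a median log2 fold change of 0.11 and -0.07. Over all genes tested 25.7% rose and 24.4% fell under isoflurane, and 20.4% rose and 21.7% fell under propofol. The 3 largest rises under isoflurane were Tp53inp1 (1.44, adjusted p = 0.00661), which promotes autophagy and cell death, Bbc3 (1.36, adjusted p = 0.00678), which encodes the pro-apoptotic protein PUMA, and Plk2 (1.31, adjusted p = 0.0129), a polo-like kinase. The 3 largest falls were Ddb2 (-2.02, adjusted p = 0.00151), which recognises ultraviolet damage in DNA, Rrm2b (-1.31, adjusted p = 1.0e-03), a ribonucleotide reductase subunit, and Fdxr (-1.14, adjusted p = 5.0e-04), a mitochondrial reductase. Ddb2 was low in all groups, at 0.118 to 0.465 CPM in Isoflurane sepsis and 0.942 to 1.45 CPM in its controls. Under propofol Tp53inp1 (1.51, adjusted p = 0.00131), Zmat3 (0.76, adjusted p = 0.00694) and Apaf1 (0.63, adjusted p = 0.00117), which builds the apoptosome, rose most. Steap3 (-0.75, adjusted p = 0.00533), a metalloreductase, Plk2 (-0.69, adjusted p = 0.0155) and Fdxr (-0.60, adjusted p = 0.0347) fell most, and the call of Fdxr was lost without any one of libraries 11 to 14 and 16, with adjusted p up to 0.0881. The call of Plk2 under propofol, where the groups overlapped, was lost with all 16 libraries in 1 fit (-0.68, adjusted p = 0.0805). Of the genes named in these lists for sepsis, those of regulators, targets, brakes, G1 and S phase, 19 were called under isoflurane and all 19 were still called without library 3. Only Plk2 moved by over 1.5 times (0.87 without library 3). Under propofol 21 were called, and all 21 were still called without library 10.

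In the interaction 3 of these 22 targets passed, all with the larger value under isoflurane, as did 1.66% of all genes tested. The 3 targets were Plk2 (1.99, adjusted p = 0.0286), Phlda3 (1.36, adjusted p = 0.0404), which restrains Akt signalling, and Aen (0.77, adjusted p = 0.0249), an apoptosis-enhancing nuclease. Plk2 lay at 18.9 to 69.9 CPM in Isoflurane sepsis against 14.6 to 17.0 CPM in its controls, and at 12.7 to 24.1 CPM in Propofol sepsis against 22.1 to 30.0 CPM. It rose under isoflurane, and its fall under propofol was the one lost in the fit of all libraries. Phlda3 also rose under isoflurane (0.87, adjusted p = 0.0252) and fell under propofol (-0.50, adjusted p = 0.0201), but sepsis and control overlapped under both. It lay at 11.1 to 32.2 CPM in Isoflurane sepsis against 11.3 to 12.4 CPM in its controls. In Propofol sepsis it lay at 13.4 to 19.6 CPM against 18.0 to 25.4 CPM. These sepsis calls of Phlda3 were not refitted with a library left out. Aen rose under isoflurane (0.96, adjusted p = 5.8e-04), with 0.18 under propofol (adjusted p = 0.112). Without library 3 Plk2 was at 1.56 and Aen at 0.69, both called, and Phlda3 was not called (1.10, adjusted p = 0.0672). Over the alternative fits the adjusted p of the interaction reached 0.0651 for Plk2, 0.0823 for Phlda3 and 0.0597 for Aen.

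**Figure D5:**
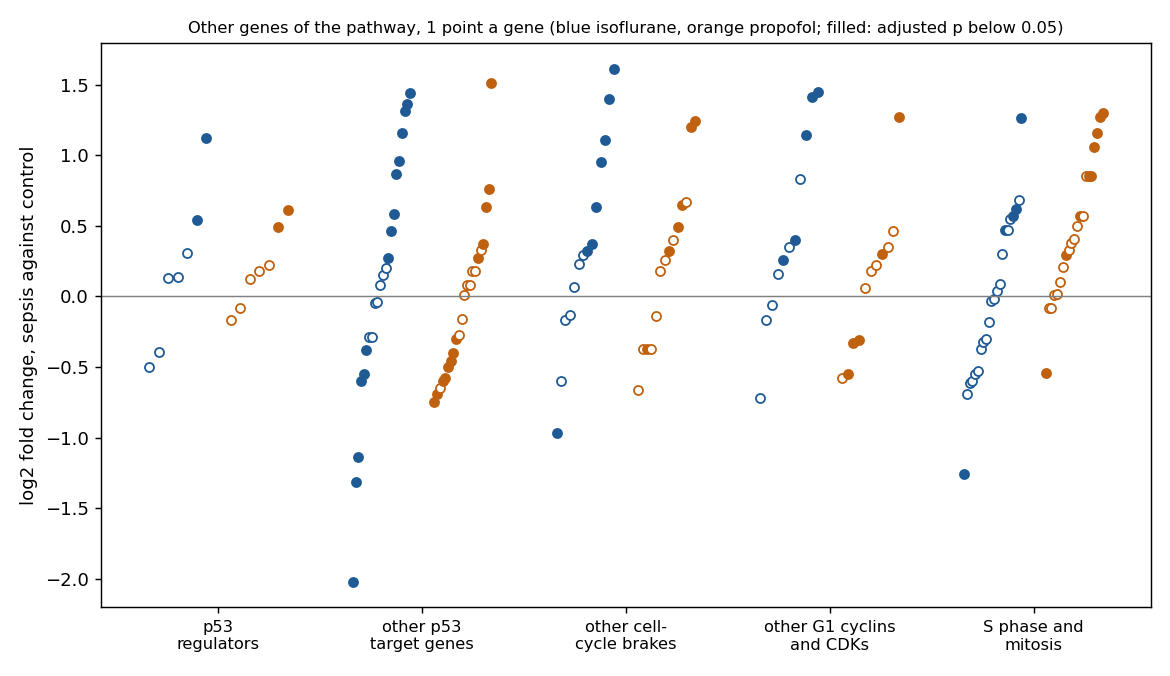
Log2 fold change of sepsis against control (y axis) for the genes tested on 5 lists (x axis), 1 point a gene, under isoflurane (blue) and propofol (orange), filled where called. Other p53 targets run from -2.02 (Ddb2) to 1.44 (Tp53inp1) under isoflurane, and the other cell-cycle brakes called under isoflurane lie above 0 except Rbl2 at -0.97.

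Of 14 other cell-cycle brakes tested, 7 rose and 1 fell under isoflurane, and 5 rose and 1 fell under propofol. The shares of all genes tested that rose and fell were 25.7% and 24.4% under isoflurane, and 20.4% and 21.7% under propofol. Btg3, a relative of Btg2, rose under both (1.61, adjusted p = 1.7e-04, and 1.20, adjusted p = 3.8e-04). Under isoflurane Cdkn2b, which encodes the inhibitor p15 (1.40, adjusted p = 0.00162), and Ccng2, the relative of Ccng1 (1.11, adjusted p = 0.00814), followed. Under propofol Pkmyt1, a kinase that holds back mitosis (1.24, adjusted p = 0.00105), and Btg1 (0.65, adjusted p = 0.00159) were among the 3 largest rises. Rbl2, which encodes the retinoblastoma relative p130, fell under both (-0.97, adjusted p = 1.3e-04, and -0.37, adjusted p = 0.00450). Its fall was larger under isoflurane (interaction -0.60, adjusted p = 0.0249). Over the alternative fits that adjusted p reached 0.0557.

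Of 11 other cyclins and kinases of G1 and their regulators tested, 5 were called under isoflurane, all of them higher, and 2 rose and 3 fell under propofol. Over all genes tested 25.7% rose and 24.4% fell under isoflurane, and 20.4% rose and 21.7% fell under propofol. Ccnd3, which encodes cyclin D3, rose under both (1.41, adjusted p = 2.5e-04, and 1.27, adjusted p = 2.6e-05). It lay at 85.2 to 112 CPM in Isoflurane sepsis against 25.5 to 41.0 CPM, and at 48.8 to 59.7 CPM in Propofol sepsis against 20.1 to 23.6 CPM. Myc, a growth-promoting transcription factor, rose under isoflurane (1.45, adjusted p = 0.00411), and Ccne2, a cyclin E gene, rose there too (1.14, adjusted p = 0.0105). Under propofol Myc was at -0.58 (adjusted p = 0.213), with 42.4 to 52.7 CPM in sepsis and 26.6 to 124 CPM in control. The interaction of Myc passed (2.01, adjusted p = 0.0473), and its adjusted p reached 0.0952 over the alternative fits, with 1.60 (adjusted p = 0.0846) without library 3 and 1.98 (adjusted p = 0.0539) without library 10. Under propofol Cdc25a rose (0.30, adjusted p = 0.0180) and Cdk6 (-0.55, adjusted p = 0.0293), Ccne1 (-0.33, adjusted p = 0.0460) and Cdk4 (-0.31, adjusted p = 0.00856) fell. The calls of Cdc25a, Cdk6 and Ccne1 were each lost without at least 1 library, with adjusted p of 0.0524 for Cdc25a without library 14, up to 0.0824 for Cdk6 without library 12, 13 or 15, and up to 0.116 for Ccne1 without library 9, 11 to 14 or 16. With all 16 libraries in 1 fit Cdc25a (adjusted p = 0.132) and Ccne1 (adjusted p = 0.338) lost their calls too.

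Of the genes of S phase and mitosis, 4 of 22 rose and 1 fell under isoflurane, and 8 of 21 rose and 1 fell under propofol. The shares of all genes tested that rose and fell were 25.7% and 24.4% under isoflurane, and 20.4% and 21.7% under propofol. Under isoflurane the rises were led by Cdt1, which licenses replication (1.26, adjusted p = 0.00911), Mcm7, a helicase subunit (0.62, adjusted p = 6.3e-04), and Pcna, the polymerase clamp (0.57, adjusted p = 0.00215), which is also a p53 target. Under propofol they were led by Ccnb1, the mitotic cyclin B1 (1.30, adjusted p = 0.0266), Mki67, the proliferation marker (1.27, adjusted p = 0.0125), and Top2a, a topoisomerase (1.16, adjusted p = 0.00191). All of these were low. In Propofol sepsis Ccnb1 lay at 1.31 to 1.84, Mki67 at 2.29 to 2.69 and Top2a at 2.78 to 3.53 CPM. In Propofol control they lay at 0.144 to 0.908, 0.479 to 1.75 and 0.959 to 1.75 CPM. In Isoflurane control they lay at 2.61 to 4.10, 2.80 to 4.43 and 3.22 to 5.08 CPM. The call of Ccnb1 was lost without library 11, 12 or 16, with adjusted p up to 0.0663, and that of Mki67 was lost with all 16 libraries in 1 fit (1.29, adjusted p = 0.0656). Tyms, the thymidylate synthase, fell under both (-1.26, adjusted p = 3.8e-04, and -0.54, adjusted p = 0.0101).

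The genes whose levels ran most like those of each member were looked for among 8893 genes over the 16 libraries, by Pearson's r of log2 CPM. The libraries share groups and preparation, so r describes these 16 points and carries no p. For Cdkn1a they were Kdm3a (r = 0.976), Hk2 (0.975) and Foxj2 (0.973), for Mdm2 Ccrn4l (0.966), Casc3 (0.948) and Tfrc (0.945), and for Ccng1 Litaf (0.973), Nxt1 (0.966) and Setd8 (0.962). For Btg2 they were Klf6, Gxylt1 and Pnpla7 (0.981 to 0.982), and for Plk3 Ddx10 (0.901), Gar1 (0.897) and Zc3h8 (0.893). For Gadd45a they were Gdf15 (0.906), Rnd3 (0.889) and Kdm4c (0.879), for Gadd45b Gxylt1 (0.966), Bnip3l (0.963) and Nfil3 (0.959), and for Gadd45g Ccnl1 (0.984), Eif2ak3 and Socs3 (0.975 each). For Ccnd1 they were St3gal5, Cops8 (0.980 each) and Psmd5 (0.968). Among the members themselves Btg2 ran closest to Gadd45b (0.96) and Cdkn1a to Ccng1 (0.94), Ccnd1 ran opposite to Btg2 (-0.88), and Gadd45a ran at 0.34 with Cdkn1a and 0.70 with Mdm2.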

How the data were processed

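For each library the authors deposited whole-number read counts per gene symbol, not normalized, made from polyadenylated RNA with a strand-keeping kit. The submitters' processing notes name STAR and the build rn5; the counting program is not given in the sources used here. The 2 entries per file that name no gene (21.61% to 25.39% of reads outside genes, 1.074% to 1.351% ambiguous) were left out. Counts of libraries of 1 group differed by more than sampling noise (chi-square per degree of freedom 3.47 to 102). Groups come from the labels. The files of the anesthetics carry different codes, so a batch that goes with the anesthetic cannot be told apart from it.

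Counts were tested with edgeR 4.0.16 in R 4.3.3 (quasi-likelihood, TMM, filterByExpr with a minimum count of 10 and total of 15), in pairs of groups and, for the interaction, over all 16 libraries, and the scripts were tested on simulated data. Log2 CPM used a prior count of 2. The likeness search required a mean of 1 or more on that scale. Alternatives were RLE factors, limma-voom (limma 3.58.1), DESeq2 1.42.0, library totals alone, no filter and a mean CPM of at least 1. Further alternatives were thinning to 14199422 reads, 1 fit of all libraries, a threshold of 0.01 on the adjusted p, and leaving out 1 library at a time. DESeq2 is the program named in the study, which gives no version of it. The fit without libraries 3 and 10 was added after the data were seen.

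The members, lists and tests were chosen with earlier results of these data known. Named genes are the members, Mdm4, the 3 largest called rises and falls of each list in each sepsis comparison, list genes called in the interaction, and the 3 genes most like each member; a further gene under this rule is not reported here. Pidd1 and Adgre1 were found under the older symbols Pidd and Emr1. Promoters are from RefSeq (GRCr8), a different build, and no coordinate of the files was used.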

Additional observations from a re-analysis of the deposited data

Results flagged for a closer look

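Of 36 groups of 4 libraries (9 genes in 4 groups), 3 held a library far from the other 3 by Dixon's test at the 95% level, where chance alone gives about 5% of groups. Gadd45b was at 31.4 CPM in library 15 of Propofol control, against 6.94 to 8.99 CPM in the other 3. Gadd45g was at 212 CPM in library 3 of Isoflurane sepsis, against 138 to 149 CPM in the other 3. Gadd45g was at 50.7 CPM in library 7 of Isoflurane control, against 63.2 to 64.8 CPM in the other 3.

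By the interaction test of edgeR, 7 of the named genes were called, with values as isoflurane minus propofol on the log2 scale. List genes called there were named by rule, so this number does not measure how often list genes pass. Over all 10621 genes tested 1.66% were called with a larger value under isoflurane and 1.06% with a smaller one. Each of these 7 calls was lost in some alternative fits. With each of the 16 libraries left out in turn, Mdm2 was called in 5 fits and Ccng1 in 2. The difference was 0.82 for Mdm2 (adjusted p = 0.0441) and 0.61 for Ccng1 (adjusted p = 0.0473). Among other p53 targets it was 0.77 for Aen (adjusted p = 0.0249), 1.36 for Phlda3 (adjusted p = 0.0404) and 1.99 for Plk2 (adjusted p = 0.0286). It was -0.60 for Rbl2 (adjusted p = 0.0249) and 2.01 for Myc (adjusted p = 0.0473). The control libraries of the anesthetics did not overlap for Mdm2, Aen, Phlda3, Plk2 and Rbl2, nor for 40.3% of all genes tested in control liver. They overlapped for Ccng1. For Myc the Isoflurane control libraries (31.5 to 34.8 CPM) lay within the wide range of Propofol control (26.6 to 124 CPM).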

How the results depend on the processing

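No paired analysis was possible because the groups share no replicate numbers. For the 9 genes, 735 of 837 alternative values kept their direction and side of the threshold, 70 lost a call, 9 gained one and 23 changed sign, and 0 of these 23 had been called. Of 896 values of other named genes 790 kept both, 105 lost a call, 0 gained one and 1 changed sign. Under isoflurane 7 to 8 of the 9 genes were called in sepsis by every alternative, and under propofol 5 to 8.

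At an adjusted p below 0.01, the genes called of all tested fell to 3200 under isoflurane (5183 before), 2628 under propofol (4352), 9 in the interaction (289), 2815 in control liver (4468) and 121 in septic liver (1982), and the members called to 2 in septic liver and 0 in the interaction. In the interaction 1 member was called with library totals alone and with libraries 3 and 10 left out together (152 genes in all), and 0 with limma-voom (3 at an unadjusted p below 0.05), with no filter on low counts (4, and 168 genes in all) or after thinning (4). DESeq2 called 847 genes there, and 2 members. With 1 library left out the interaction called 0 to 2 members and 54 to 1615 genes, and the septic comparison 2 to 7 members and 249 to 2867 genes. With all 16 libraries in 1 fit, control liver gave 5 members and 2792 genes and septic liver 4099 genes. The cause was not tested.

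Signs turned only for values that had been between -0.09 and 0.06. Mdm2 under propofol was -0.04 with library totals alone, 0.00 after thinning (below 0 before rounding) and -0.02 to 0.05 with a library left out. In the interaction Gadd45b was 0.01 with RLE factors, 0.02 after thinning and -0.83 to 0.24 with a library left out. Btg2 was -0.06 with limma-voom, -0.17 without libraries 3 and 10, and -0.36 to 0.28 with 1 left out, and Mdm4 was -0.13 to 0.00. Plk3 in septic liver was -0.18 to 0.02. Library totals alone moved the median of all genes to -0.15 in control liver and -0.16 in septic liver, and the share of calls that were higher from 49.8% to 22.9%, from 55.1% to 21.5% and, in sepsis under propofol, from 48.4% to 38.2%. Depth leaves Ccnd1, with as few as 60 reads in a library, the least precisely counted.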
